A study of Mus musculus with 6 samples.

Results

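A set of 10 transcripts that mouse embryos make at the 2-cell stage was followed in embryonic stem cells without and with an intact Pml gene. The transcripts were Tcstv1, Tcstv3, B020031M17Rik, AF067061, Gm5662, Gm8300, Gm2022, BB287469, Tmem92 and Zfp352. They were taken by symbol from the deposited table of gene levels, where BB287469 has a pair of rows with the same values at neighbouring loci and was counted once. They are 10 of 24421 genes in that table, and 8 of them are among the 12435 genes with enough reads to be tested. The 6 libraries of polyadenylated RNA came from E14 cells, 3 from cells of genotype Pml-/- (called Pml KO here) and 3 from wild-type cells (WT). Both groups grew in medium with serum, leukemia inhibitory factor, the GSK3 inhibitor CHIR99021 and the MEK inhibitor PD0325901. Whether the replicates were separate cultures is not said in the labels, and the column names of the 3 Pml KO libraries share 1 prefix, so they may come from 1 line. The p-values therefore cover the spread among these 6 libraries, and that spread may be technical.

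In the mouse, the genome of the embryo is first broadly transcribed at the 2-cell stage, and many of the transcripts made then are silent soon after. Cultures of embryonic stem cells hold a small, changing fraction of cells, called 2-cell-like cells, that transcribe these genes again together with MERVL retroelements. The transcription factor DUX is known to switch on many of them, and PML is the scaffold of nuclear bodies that hold SUMO-modified and chromatin proteins.

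All 10 transcripts stood at a higher level in each Pml KO library than in any WT library. Of the 8 that could be tested, all 8 rose (limma on log2(CPM + 1), adjusted p under 0.05), where 6.54% of all 12435 tested genes were called higher. The groups also separated in this direction for 15.1% of all tested genes. CPM are the reads of a gene per 1000000 reads of its library. Log2 fold changes are Pml KO over WT and were taken on log2(CPM + 1), where the change of low genes is understated. Over the 8 tested members the median log2 fold change was 1.02, against 0.00463 over all tested genes. The list was chosen with earlier results of these data known, so the contrast with all tested genes is partly set by that choice. Most of the 8 also belong to families of near copies that may share reads, so they are not separate counts. The ratio of reads per library total, which carries no pseudocount, lay between 1.93 and 3.13 for the 10 members, with a median of 2.53. Of the 8, Tcstv3 reached the filter's level of 1.11 CPM in 3 libraries only with the help of Pml KO libraries, where it is high, so its passing was not independent of its direction. In bulk RNA, more 2-cell-like cells, more RNA per such cell and more RNA from other cells cannot be told apart.

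The members fall into 2 families of near copies and 2 single genes. Coordinates are GENCODE M21 gene bounds on GRCm38 (mm10), and every member is annotated there as protein coding. Tcstv1 (chromosome 13, 119893388 to 119894785, minus strand), B020031M17Rik (119949357 to 119950806, minus), AF067061 (120263114 to 120264517, plus) and Tcstv3 (120316878 to 120318178, plus) lie together. Their coding sequences are 510 to 522 bases long, and those of Tcstv1 and AF067061 were 95.3% identical, of Tcstv1 and Tcstv3 93.6%, and of Tcstv1 and B020031M17Rik 88.5%. The first 60 coding bases are shown because they make the likeness of the 4 genes visible, with capitals where a gene departs from Tcstv3:
Tcstv3: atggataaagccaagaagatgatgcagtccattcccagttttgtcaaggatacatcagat
Tcstv1: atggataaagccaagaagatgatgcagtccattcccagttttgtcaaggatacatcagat
AF067061: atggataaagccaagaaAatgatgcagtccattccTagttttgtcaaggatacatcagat
B020031M17Rik: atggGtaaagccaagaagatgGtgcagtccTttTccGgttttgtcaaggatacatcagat
Over this stretch Tcstv1 has 0, AF067061 2 and B020031M17Rik 5 departures from Tcstv3, so reads from parts of it could match several genes.

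The second family lies on chromosome 12. Gm8300 (87514316 to 87518266, plus strand), BB287469 (87816577 to 87820676, plus), Gm2022 (87895370 to 87895804, plus) and Gm5662 (88270640 to 88274500, minus) each have a coding sequence of 435 bases. These were 83.7% to 85.1% identical to the coding sequence of Eif1ax, which encodes the translation initiation factor eIF1A, and 97.2% to 98.4% identical to each other. The 60 coding bases from position 231 to 290 are shown because the 4 genes differ most there, with capitals where a gene departs from Gm5662:
Gm5662: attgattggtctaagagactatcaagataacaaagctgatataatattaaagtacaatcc
Gm2022: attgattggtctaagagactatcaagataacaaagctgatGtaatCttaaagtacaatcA
Gm8300: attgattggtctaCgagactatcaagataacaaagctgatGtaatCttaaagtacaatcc
BB287469: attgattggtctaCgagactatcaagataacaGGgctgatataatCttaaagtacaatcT
Even in this window Gm2022 and Gm8300 have 3 departures each and BB287469 has 5. The sources used here do not say how reads that match several copies were shared out, so the level of a single copy is uncertain. The listed members of each family are also given below as a sum.

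The eIF1A-like genes had the most reads of the members. Gm5662 stood at 22.2, 20.5 and 21.5 CPM in the Pml KO libraries (replicates 1, 2 and 3), against 7.33, 9.49 and 10.1 CPM in the WT libraries. The lowest Pml KO library stood far above the highest WT library, so the groups did not overlap. Gm5662 rose by a log2 fold change of 1.18 (limma, SE 0.111, adjusted p = 3.98e-09), from 475 Pml KO and 274 WT reads.

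Gm8300 stood at 15.95, 15.91 and 18.6 CPM in Pml KO cells and at 5.43, 5.62 and 8.41 CPM in WT cells. Replicate 3 was the highest library in both groups, and the groups stayed apart. With a log2 fold change of 1.27 (limma, SE 0.132, adjusted p = 2.88e-08) it had the largest value of the 8 tested members on this scale. Gm2022, the member of this family with the smallest ratio, stood at 14.4, 14.4 and 16.6 CPM in Pml KO cells and at 6.16, 8.04 and 6.82 CPM in WT cells. The groups did not overlap, and the log2 fold change of Gm2022 was 1.01 (limma, SE 0.12, adjusted p = 3.36e-07).

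BB287469, with the fewest reads of these 4, stood at 8.83, 8.21 and 9.78 CPM in Pml KO cells, against 2.90, 3.87 and 2.77 CPM in WT cells. All 3 Pml KO libraries were more than 8 CPM and all 3 WT libraries under 4 CPM. BB287469 rose by a log2 fold change of 1.26 (limma, SE 0.148, adjusted p = 2.91e-07). The coding sequence of BB287469 is 100% identical to that of Gm4027, and Gm4027 is listed with 0 reads in every library. Any reads from Gm4027 may therefore be counted under BB287469, or not counted.

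**Figure D1:**
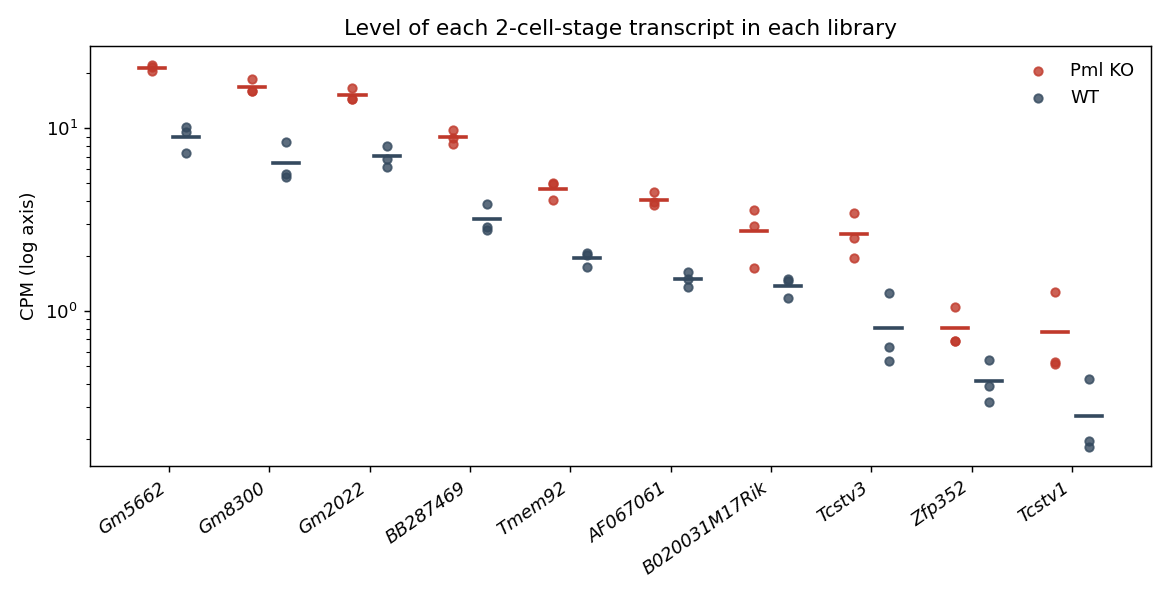
Level of the 10 transcripts in CPM on a log axis, with 1 point per library, 3 Pml KO libraries (red, left) and 3 WT libraries (dark, right) per gene, and a bar at each group's mean. The Pml KO points lie above the WT points for every gene, from Gm5662 at 21.4 and 8.98 CPM on average to Tcstv1 at 0.769 and 0.267 CPM; CPM are not divided by transcript length.

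Summed over the 4 eIF1A-like members, the level was 61.3, 59.0 and 66.5 CPM in Pml KO cells and 21.8, 27.0 and 28.1 CPM in WT cells. The 1388 Pml KO and 784 WT reads give a ratio of 2.46 (exact 95% interval 2.25 to 2.69, for counting error only). The sum is not altered by a shift of reads between the 4 copies. A shift to or from close copies off the list, such as Gm2016 (21.7 CPM in Pml KO cells), would alter it. Eif1ax itself, the X-linked gene that they resemble, stood at 119 ± 3.54 CPM in Pml KO cells and at 131 ± 3.68 CPM in WT cells (SD, n = 3 each), with a log2 fold change of -0.14 (limma adjusted p = 0.0269). That call was lost with DESeq2 (adjusted p = 0.139) and without any 1 of Pml KO replicates 1 and 2 or WT replicates 1 and 3.

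The Tcstv family had fewer reads. Tcstv1 and Tcstv3 are named for the 2-cell-stage variable group of transcripts, and both have been linked to telomere length in mouse embryonic stem cells. AF067061, the member of this family with the most reads, stood at 4.48, 3.93 and 3.80 CPM in Pml KO cells and at 1.63, 1.36 and 1.49 CPM in WT cells. The libraries of each group lay close together, far from those of the other group. AF067061 rose by a log2 fold change of 1.02 (limma, SE 0.173, adjusted p = 9.74e-05).

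Tcstv3 stood at 2.51, 3.42 and 1.96 CPM in Pml KO cells, against 0.634, 1.26 and 0.533 CPM in WT cells. Replicate 2 was the highest library in both groups, and the lowest Pml KO library was above the highest WT library. Tcstv3 rose by a log2 fold change of 1.01 (limma, SE 0.211, adjusted p = 0.00129), and its ratio of reads per library total was 3.11 (interval 1.91 to 5.21, from 56 and 25 reads).

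B020031M17Rik stood at 1.71, 2.91 and 3.57 CPM in Pml KO cells and at 1.18, 1.45 and 1.49 CPM in WT cells. Pml KO replicate 1, with 13 reads, lay only just above the highest WT library. The log2 fold change was 0.62 (limma, SE 0.201, adjusted p = 0.0355). This call was lost without any 1 of WT replicates 1, 2 and 3 or Pml KO replicates 2 and 3, where the adjusted p lay between 0.0732 and 0.204. It was also lost with no filter on low values (adjusted p = 0.0739) and with DESeq2 on the recovered reads (adjusted p = 0.148).

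Tcstv1 was too low to be tested with the other genes. It had 4, 3 and 11 reads in the Pml KO libraries, or 0.527, 0.513 and 1.27 CPM, against 2, 2 and 4 reads in the WT libraries, or 0.181, 0.194 and 0.426 CPM. The gap between the groups was smaller than the CPM of 1 read in a Pml KO library, and replicate 3 was the highest library in both. The ratio was 3.13, with an interval of 1.29 to 8.32 from 18 and 8 reads. In a fit of every gene with a read in any library its log2 fold change was 0.46 (SE 0.156) and it was not called (limma adjusted p = 0.0916).

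The 4 Tcstv family members together stood at 9.23, 10.8 and 10.6 CPM in Pml KO cells and at 3.62, 4.26 and 3.94 CPM in WT cells. With 225 and 121 reads, the ratio was 2.59 (interval 2.06 to 3.25). The close copy Gm20767, at 15.4 CPM in Pml KO cells and 7.58 CPM in WT cells on average, is not in this sum. When the listed members of each family were summed before the fit, each sum rose as 1 unit, with 3 of 3 tested units called higher (the 2 sums and Tmem92). Close copies off the list were not added to these sums.

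Tmem92 encodes a small transmembrane protein and is often used as a mark of 2-cell-like cells. The gene lies on chromosome 11 (94777217 to 94782703, minus strand) with no other member nearby. It stood at 5.01, 4.96 and 4.03 CPM in Pml KO cells, against 2.08, 1.74 and 2.02 CPM in WT cells. The lowest Pml KO library was well above the highest WT library. Tmem92 rose by a log2 fold change of 0.94 (limma, SE 0.167, adjusted p = 0.000191).

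Zfp352 encodes a zinc finger protein first described in 2-cell embryos, as its older name 2czf48 records. It lies on chromosome 4 (90218820 to 90225702, plus strand) and had few reads. The Pml KO libraries held 8, 4 and 6 reads (1.05, 0.684 and 0.690 CPM), and the WT libraries held 6, 4 and 3 reads (0.543, 0.387 and 0.320 CPM). The read counts overlap and the CPM do not, because the WT libraries are larger. The ratio of 1.93 had an interval of 0.892 to 4.27, the only 1 of the 10 that includes 1. In the fit of every gene with a read its log2 fold change was 0.35 (SE 0.131) and it was not called (limma adjusted p = 0.131).

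**Figure D2:**
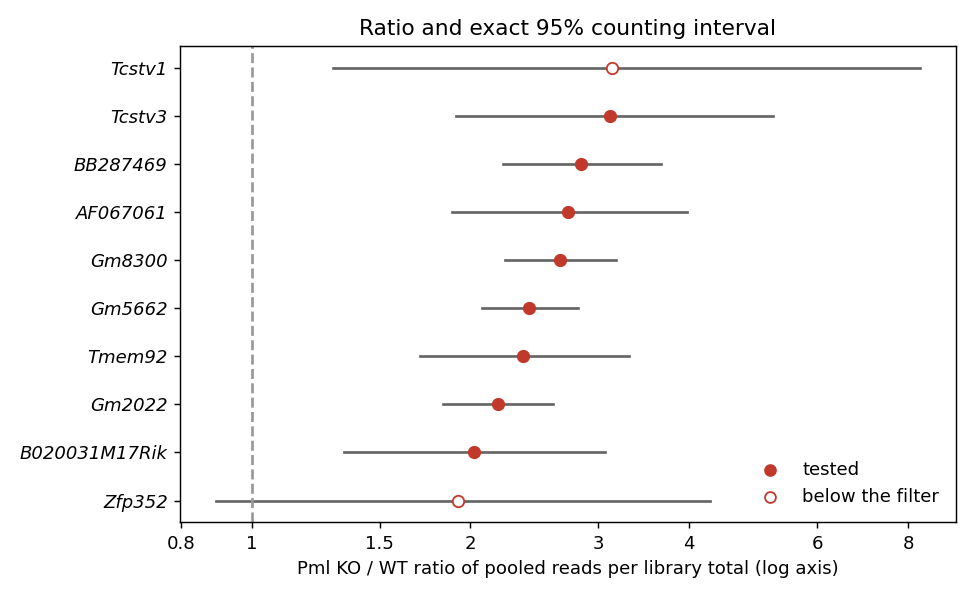
Ratio of Pml KO to WT reads per library total for each member on a log axis, with exact 95% intervals from reads pooled within each group (counting error only). Filled points are members in the test of 12435 genes and open points are Tcstv1 and Zfp352, which were too low for it; the 10 intervals share the values from 2.23 to 2.60.

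All 10 intervals of the ratio contain the values from 2.23 to 2.60, so at this depth the counts allow 1 common ratio for the whole list. A difference between members in fold change was not tested. In the authors' deposited table the log2 fold changes of the members ran from 0.91 for Zfp352 to 1.62 for Tcstv3, and 8 of the 10 had an FDR under 0.05. The other two were Tcstv1, at 0.117, and Zfp352, at 0.554, the same genes that were too low to be tested here.

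Shares were taken of the sum of the 4 listed members of a family, without close copies off the list. Within each family the range of every member's share overlapped between the groups. Gm5662 made up 32.4% to 36.1% of the summed CPM of the eIF1A-like members in Pml KO libraries and 33.6% to 36.0% in WT libraries. Gm8300 made up 26.0% to 28.0% in Pml KO libraries and 20.8% to 29.9% in WT libraries. Gm5662 had the largest share of these 4 members in all 6 libraries. BB287469 made up 13.9% to 14.7% in Pml KO libraries and 9.8% to 14.34% in WT libraries. Gm2022 made up 23.4% to 24.9% in Pml KO libraries and 24.2% to 29.7% in WT libraries. For Gm2022, WT replicate 3 lay below the highest Pml KO library and the other WT libraries lay above it. In the Tcstv family AF067061 made up 35.9% to 48.6% in Pml KO libraries and 31.8% to 45.0% in WT libraries. Tcstv3 made up 18.5% to 31.7% in Pml KO libraries and 13.5% to 29.5% in WT libraries. The ranges of both genes overlapped widely between the groups. Tcstv1 had the smallest share, at 4.8% to 12.0% in Pml KO libraries and 4.5% to 10.8% in WT libraries. B020031M17Rik took 18.6%, 27.0% and 33.7% in Pml KO libraries and 32.5%, 34.09% and 37.8% in WT libraries, so that Pml KO replicates 1 and 2 lay below every WT library.

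**Figure D3:**
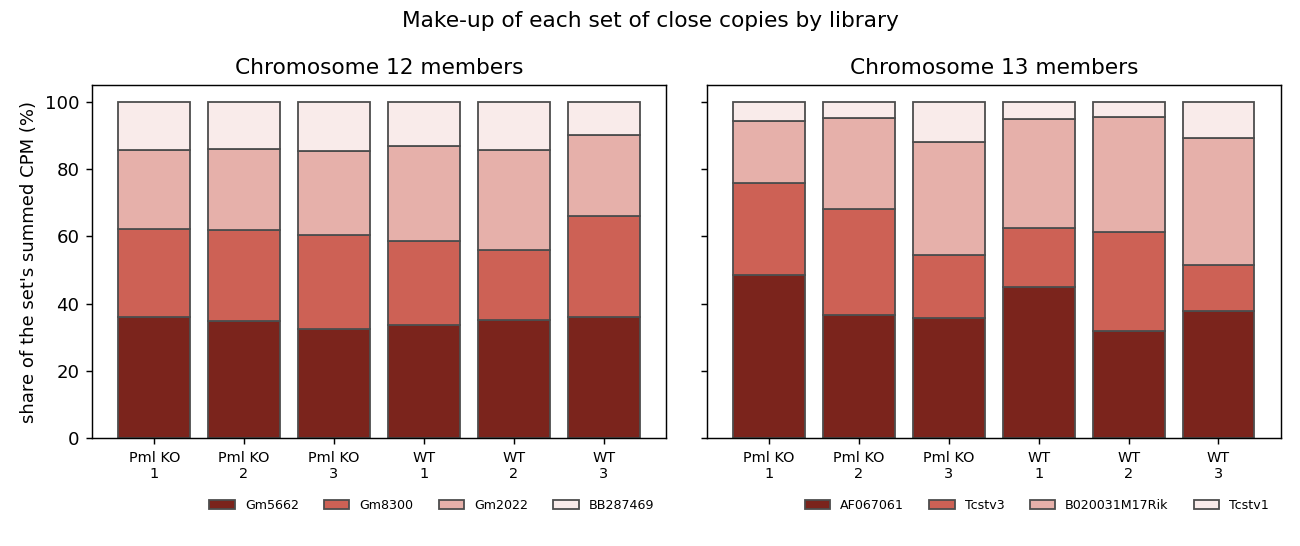
Share of each member in the summed CPM of the listed members of its family (per cent) in each library, without close copies off the list. The eIF1A-like members of chromosome 12 and the Tcstv family members of chromosome 13 are shown, Pml KO libraries left of WT libraries. Gm5662 holds 32.4% to 36.1% of the eIF1A-like sum in every library, while the shares of the low Tcstv family genes vary more between libraries of the same group.

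Per kilobase of the longest GENCODE transcript, the order of the mean levels in Pml KO cells was Gm5662 (11.6 CPM per kilobase), Gm8300 (8.99), BB287469 (4.83), AF067061 (3.47), Tcstv3 (3.37), B020031M17Rik (2.95), Tmem92 (2.28), Tcstv1 (0.601) and Zfp352 (0.356). The first 3 did not overlap with their next neighbour in any Pml KO library. AF067061 overlapped with Tcstv3, Tcstv3 with B020031M17Rik, B020031M17Rik with Tmem92, and Tcstv1 with Zfp352. Tmem92 and Tcstv1 did not overlap. In WT cells Gm5662 (4.88 CPM per kilobase) and Gm8300 (3.46) overlapped, and B020031M17Rik (1.48) had a higher mean than AF067061 (1.27) and Tcstv3 (1.04), with overlapping libraries. Gm2022 is left out of this order, since only its coding bases are annotated.

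The neighbours of both families were examined next, a choice made after the values of the members were known. On chromosome 12 the table places 7 tested genes inside the cluster, and all 7 rose: the 4 members, Gm2016, Gm1995 and Gm21319. Gm1995 and Gm21319 passed the filter only with the help of Pml KO libraries, and the other 5 reached its level in all 3 WT libraries. Gm2016, a further eIF1A-like copy with a coding sequence 99.1% identical to that of Gm5662, stood at 21.7 ± 0.574 CPM in Pml KO cells and 8.28 ± 0.378 CPM in WT cells (SD, n = 3 each; log2 fold change 1.29, limma adjusted p = 8.39e-11). Gm5039, a further tested eIF1A-like copy annotated in this region, is counted neither inside nor outside the cluster here. It rose (log2 fold change 0.95, limma adjusted p = 7.51e-05). Of the 10 other nearest tested genes outside the cluster, 1 rose and 1 fell. These were Ism2 and Adck1, with log2 fold changes of 0.47 and -0.43, which are the highest and the lowest of the 10.

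On chromosome 13 the 4 tested genes inside the cluster rose: AF067061, Tcstv3 (which passed the filter with the help of Pml KO libraries), B020031M17Rik and Gm20767. Gm20767, 95.5% identical to AF067061 over the coding bases, stood at 15.6, 17.8 and 13.0 CPM in Pml KO cells, against 7.06, 7.17 and 8.52 CPM in WT cells (log2 fold change 0.93, limma adjusted p = 2.1e-06). BC147527, 90.1% identical to Tcstv3, was too low for the main test. It had 22 reads in Pml KO cells and 3 in WT cells, a ratio of 10.2 with an interval of 3.06 to 53.2, and an adjusted p of 0.000753 in limma's fit of every gene with a read. The 5 nearest tested genes before the cluster had log2 fold changes between -0.60 and -0.12, and 3 of them fell: Hmgcs1, Paip1 and Zfp131. The call of Zfp131 was lost with DESeq2 and without Pml KO replicate 1 or WT replicate 2 (highest adjusted p = 0.0961). No tested gene lies after the cluster in the table.

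**Figure D4:**
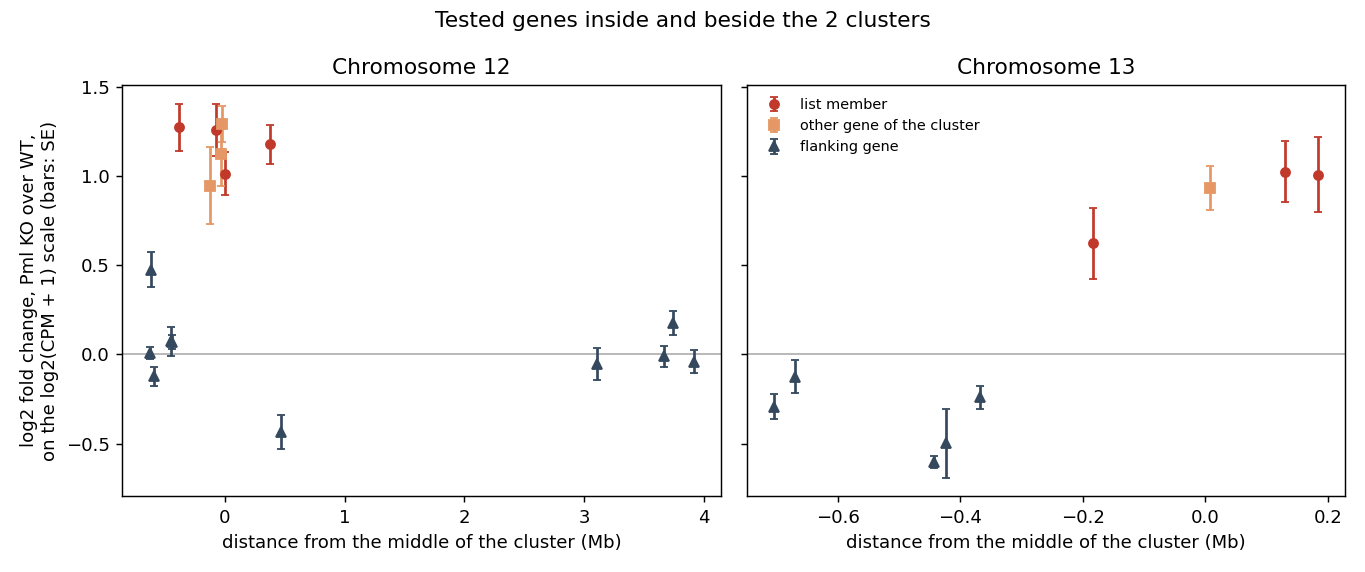
Log2 fold change (Pml KO over WT, log2(CPM + 1) scale, bars are SE) of the tested genes against distance from the middle of each cluster in megabases, for list members, other genes of the cluster and flanking genes. The 7 genes inside the chromosome 12 cluster and the 4 inside the chromosome 13 cluster lie above 0.6, and every flanking gene shown lies below 0.5. Gm5039 is in neither group and is not plotted.

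Coding sequences were compared only within windows around the 2 clusters and with Eif1ax, and copies elsewhere in the genome were not looked for. Eif1ax also passes 80% identity but is left out of the count that follows. It was called lower, in a call lost under several alternatives, as given above. In the windows, 15 annotated genes that are not on the list were at least 80% identical to a member. The table lists 6 of these 15 under their own symbol. Of these, 4 could be tested and 4 rose: Gm2016, Gm5039, Gm21319 and Gm20767, of which Gm21319 passed the filter only with the help of Pml KO libraries. Gm4027 was at 0 reads and BC147527 is described above. The other 9 were not analysed here.

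Promoter sequence from RefSeq (GRCm38.p6) was at hand for 3 of the 10 members, Zfp352, AF067061 and BB287469, and was looked at because the members moved together. The 150 bases before each RefSeq start are printed, with capitals at TATAA (read 5′ to 3′) and at the match to ATTCAATCA, the core of the mouse DUX motif. The windows are chr4:90218670-90218819, chr13:120262945-120263094 and chr12:87816427-87816576, all on the plus strand:
Zfp352: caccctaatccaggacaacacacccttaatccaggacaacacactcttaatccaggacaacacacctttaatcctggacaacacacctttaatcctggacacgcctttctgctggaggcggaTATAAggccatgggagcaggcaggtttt
AF067061: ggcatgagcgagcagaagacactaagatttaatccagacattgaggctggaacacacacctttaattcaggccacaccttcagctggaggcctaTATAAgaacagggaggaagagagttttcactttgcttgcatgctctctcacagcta
BB287469: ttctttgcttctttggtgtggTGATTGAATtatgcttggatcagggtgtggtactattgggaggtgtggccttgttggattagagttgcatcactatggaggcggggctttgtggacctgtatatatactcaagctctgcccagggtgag
BB287469 holds ATTCAATCA on the minus strand, at position -129 from the start, and 0.183% of 32851 RefSeq promoters of the same length hold these letters on either strand. The letters are not in the windows of Zfp352 and AF067061. TATAA, a motif chosen after the sequences were seen, begins at position -28 in Zfp352 and at -56 in AF067061, where it overlaps TATATAA. AF067061 holds it again at -245, outside the stretch shown. TATAA occurs on the sense strand in 17.5% of all promoters. The motifs TGCACAC (bound by ZSCAN4; 4.4% of promoters on either strand) and TATAAA (13.6%), searched on both strands, are in none of the 3 windows of 300 bases. The Zfp352 promoter holds the letters ACAACACAC, also chosen after it was seen, 9 times. The 0.00304% of all promoters that hold them as often is the Zfp352 promoter alone. The longest run shared by each pair was looked for after the sequences were seen. It is 13 bases for Zfp352 and AF067061 (ACACACCTTTAAT, in 0.116% of promoters), 11 bases for BB287469 and AF067061 and 9 bases for Zfp352 and BB287469.

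Other 2-cell-stage genes were read from a list of 55 symbols, of which 24 could be tested. Of these, 17 rose, 2 fell and 5 did not pass the test, and their median log2 fold change was 0.93, against 0.00463 over all tested genes. Of the 24, 7 passed the filter only with the help of Pml KO libraries (Usp17la, Usp17lc, Usp17ld, Usp17le, Sp110, Gm21319 and Pramef25). Of these 7, 6 are among the genes that rose, so the count and the median are partly set by the filter. The list of 55 symbols too was chosen with earlier results of these data known. The list holds Gm2016, Gm21319 and Gm20767, described above as copies of members. On the log2(CPM + 1) scale the 4 largest changes were those of Zscan4f, Zscan4a, Zscan4b and Zscan4d, zinc finger genes that mark the 2-cell-like state, with log2 fold changes of 1.39, 1.36, 1.31 and 1.31. By the ratio without a pseudocount, Gm21319 (3.97), Usp17lc (3.69), Usp17le (3.51) and Usp17la (3.37) had higher values than Zscan4f (2.71). All of these except Zscan4f are among the genes that passed the filter only with the help of Pml KO libraries. Their counting intervals all contain 2.71 (Gm21319 2.12 to 7.91, Usp17lc 2.43 to 5.73, Usp17le 2.43 to 5.14, Usp17la 2.28 to 5.05), and the difference was not tested. The genes of the list that fell were Gm13128 (log2 fold change -0.62) and Plk2 (-0.34), a kinase gene.

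Related families are given as sums. The 5 Zscan4 genes summed to 172, 180 and 193 CPM in Pml KO cells and to 71.5, 67.5 and 68.2 CPM in WT cells, a ratio of 2.64 (interval 2.50 to 2.78). The 5 Usp17l genes, which encode deubiquitinases, summed to 21.9, 14.9 and 19.7 CPM in Pml KO cells and to 6.61, 6.005 and 5.75 CPM in WT cells, a ratio of 3.12 (interval 2.62 to 3.72). In both families every Pml KO library was above every WT library. The 10 members summed to 76.6, 75.4 and 81.8 CPM in Pml KO cells and to 28.1, 33.4 and 34.4 CPM in WT cells, a ratio of 2.46 (interval 2.28 to 2.67). The difference between these ratios was not tested. Dux, named here after its values were seen, had 8, 8 and 12 reads in the Pml KO libraries and 3, 4 and 1 reads in the WT libraries. That is a ratio of 4.87 with an interval of 2.16 to 12.4, and its adjusted p was 0.00113 in limma's fit of every gene with a read. Dux is a gene with many near-identical copies, so its count is uncertain too.

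The 5 genes outside the list whose profile over the 6 libraries lay closest to the median profile of the tested members were Dcdc2c, Fam124a, Gm7102, Igf2 and Plac8. Fam124a and Plac8 passed the filter only with the help of Pml KO libraries. The measure was the Euclidean distance of log2(CPM + 1) after subtraction of the WT mean, and it ran from 0.315 for Dcdc2c to 0.349 for Plac8. The distances of the 8 tested members to their own median ran from 0.243 for Gm2022 to 0.960 for B020031M17Rik. Dcdc2c, a doublecortin domain gene, stood at 35.5 ± 3.97 CPM in Pml KO cells and 16.5 ± 1.04 CPM in WT cells (SD, n = 3 each).

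The labels were checked on Pml and on markers of cell type. Pml stood at 76.3 ± 0.912 CPM in Pml KO cells and 191 ± 4.09 CPM in WT cells (SD, n = 3 each; log2 fold change -1.31, limma adjusted p = 1.28e-20), and no source used here names the part of the gene that was disrupted. The libraries held 5845653 to 8693079 reads in Pml KO cells and 9389186 to 11046725 in WT cells. The 9 embryonic stem cell markers summed to between 7255 and 7413 CPM in Pml KO libraries and between 7044 and 7223 CPM in WT libraries, and 2 of the 9 rose. The 10 trophoblast markers summed to between 112 and 122 CPM in Pml KO libraries and between 115 and 120 CPM in WT libraries, with Elf5 at 0; of 8 tested, 1 rose and 2 fell. The 9 primitive endoderm markers summed to between 88.8 and 99.6 CPM in Pml KO libraries and between 92.6 and 96.7 CPM in WT libraries. Of 4 tested, 0 were called by limma, edgeR or DESeq2, and 1 had an unadjusted p under 0.05. The 8 fibroblast markers, which feeder cells would carry, were lower in Pml KO cells as a sum, at 295 to 324 CPM against 396 to 426 CPM in WT cells, with Dcn at 0; of 3 tested, 1 rose and 2 fell. The part of these markers in the result was not tested.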

How the data were processed

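Per the series text and the submitters' processing notes, the authors trimmed reads with Cutadapt, aligned them to mm10 with TopHat and tested genes with edgeR (no version, counter or annotation is named). The deposited table holds 6 columns of CPM and, per the file headers, edgeR's log2 fold change, mean log2 CPM, p-value and FDR. Every CPM value was a whole multiple of 1 read within 0.01 of a read (100% in each library), so reads were recovered; intervals and floors cover counting error only, and 3 reads equal 0.272 to 0.513 CPM. Of 25833 rows, 1097 without values and 315 repeats of a symbol with the same CPM values were removed, whatever their locus.

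Genes passing edgeR's filterByExpr on recovered reads were fitted with limma 3.58.1 (intensity trend, log2(CPM + 1), no covariate), with Benjamini-Hochberg adjustment over all 12435 tested genes. Tcstv1 and Zfp352 failed this filter and were read from a fit of every gene with a read. Alternatives were edgeR 4.0.16 with TMM or RLE factors, DESeq2 1.42.0, a pseudocount of 0.25 CPM, no filter, TMM-scaled CPM and a replicate block. Further alternatives left out each library or summed the listed members of each family. Ratios use reads pooled by group, with exact Clopper-Pearson intervals. Coding sequences were aligned globally with Biopython 1.88 from GENCODE M21. The fit was tested on simulated counts.

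The members and lists were chosen with earlier results of these data known. Named genes were all members, Pml, the 5 nearest profiles, the 4 largest changes of the 55-gene list and close copies; Eif1ax, Dux and the genes flanking the clusters were added after values were seen. The chi-square per degree of freedom between libraries was 1.33 to 1.64 within groups and 3.19 to 4.53 between groups, so all 6 were counted.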

Additional observations from a re-analysis of the deposited data

How the results depend on the processing

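Members called higher numbered 7 or 8 of the 8 under every setting that keeps them apart; Gm5662, Gm8300, Gm2022, BB287469, AF067061, Tcstv3 and Tmem92 were called in 13 of 13 alternatives each, the highest adjusted p being 0.0141 for Tcstv3. B020031M17Rik was called in 6 of 13, with adjusted p from 0.00559 to 0.204; the cause was not tested. Of 23 named genes outside the list, Eif1ax was called in 8 of 13 alternatives and Zfp131 in 10 of 13, and the other 21 in 13 of 13, all with 1 direction. With the listed members of each family summed, 3 units were called, since fewer were tested. DESeq2 on recovered reads called 796 genes in all, 333 of them higher, against 1745 and 813; the cause was not tested. Leaving out 1 library gave 1146 to 1831 calls (504 to 863 higher), with 1146 and 504 without WT replicate 2, and 7 to 8 members and 16 to 18 genes of the 2-cell-stage list. The 2-cell-stage list had 16 to 22 genes called higher over the other alternatives, 22 with no filter on low values.

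The groups share replicate numbers. Deviations of same-numbered libraries correlated at 0.0972, 0.107 and 0.0394 over 10217 genes, and each library correlated best with its own number. Pairs with different numbers lay between -0.107 and 0.0128. The correlations were weak, and whether same-numbered libraries share more than a number was not tested. The replicate block raised the calls to 2337 (1138 higher) and left the members called at 8.

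Tcstv1 and Zfp352 rest on 18 reads each in Pml KO cells and on 8 and 13 in WT cells, and their ratios have wide counting intervals (1.29 to 8.32 and 0.892 to 4.27).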
